A study of Mus musculus with 10 samples.

Results

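The hair follicle keeps its stem cells in the bulge, a niche of the outer root sheath, and 10 genes by which mouse bulge and outer sheath cells are known were followed here in keratinocytes of back skin epidermis. They were taken as a named list: the transcription factors Lhx2, Foxc1, Sox9, Tcf7l1 and Nfatc1, and the surface proteins Lgr5, Lgr6, Cd34, Lrig1 and Lrp4. All 10 were found by gene identifier among the 17983 genes of the deposited values, and all 10 were listed in every library and passed the filter on low values. Bulge cells rest for long periods and are called into cycle when Wnt signalling rises and bone morphogenetic protein signalling falls. Lgr5 and Lgr6 amplify Wnt signals by binding R-spondins, whereas Tcf7l1 is known as a repressor of Wnt target genes. Several of these factors are also known for keeping bulge cells quiescent or for holding them to the follicle fate, so the list joins genes of resting niche cells with receptors that mark cells closer to activation.

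RNA sequencing of 10 libraries compared 2 genotypes and 2 treatments on day 5. The knockout mice carried Gsdma1KO/KO;Gsdma3fx/fx;K14-Cre, that is, a constitutive loss of Gsdma1 and a floxed Gsdma3 cut by a Cre recombinase under the keratin 14 promoter, which is active in basal keratinocytes and the outer root sheath. The control mice were labelled wild type, with no allele or Cre named. Gasdermins of the A family are pore-forming proteins of skin epithelium. There were 3 knockout libraries after olive oil/acetone, 2 knockout libraries after water, 3 control libraries after olive oil/acetone and 2 control libraries after water. The oil mixture held 4 parts acetone to 1 part olive oil, and it or water was rubbed on the back 2 times a day for 3 days. Age was not given in the sources used here. Whether the libraries stand for separate animals is not labelled either, and p-values cover only the variation among libraries, part of which may be technical. Epidermis was lifted off with dispase and the cells were freed with trypsin. The protocol names no sort for follicle cells, so each value mixes follicle and interfollicular keratinocytes, and fewer cells of a type cannot be told apart from less RNA per cell.

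Values are normalised read counts, and depth was 15914663 to 21812292 recovered reads per library. The keratinocyte label held for the main keratins: Krt14 averaged 165690 to 267150 and Krt5 259620 to 340210 over the 4 groups. Gsdma3 averaged 0.299 ± 0.519 in knockout and 103 ± 64.1 in control under oil/acetone (SD, n = 3 each), and Gsdma, listed under that symbol for Gsdma1, averaged 496 ± 307 in knockout and 602 ± 113 in control. Reads summed over Gsdma cannot show a deletion of only some exons. Transcripts of 4 Y-linked genes summed to 3583 to 4967 in the 6 oil/acetone libraries and to 0 in the 4 water libraries, so a treatment difference and a sex difference cannot be told apart anywhere below. Of 12 hair shaft and inner sheath genes, the sum stood apart in control water replicate 2 (12003) and in knockout oil/acetone replicates 2 and 3 (2736 and 887), against 167 to 340.4 in the other 7 libraries. Those 3 libraries are called hair-rich here, a choice made after the data were seen. For the named bulge and outer sheath genes, some results are also given without the hair-rich libraries. Genes of all other lists are given only with every library included. Whether calls on those lists hold without the hair-rich libraries is not shown.

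Start-site windows of RefSeq (GRCm38.p6, the build of the files) matched 6 of the 10 genes and gave 7 windows, each running from 250 bases before to 50 bases after a gene start. The windows of 3 genes are shown because Lhx2 and Foxc1 were the members furthest above control in knockout skin under oil/acetone, and Lgr6 lay below control in the same libraries. They are chr2:38339031-38339330 on the plus strand for Lhx2, chr13:31806396-31806695 on the plus strand for Foxc1 and chr1:135105227-135105526 on the minus strand for Lgr6, each written 5′ to 3′ on the gene's strand. Capitals mark every match, on either strand, to 4 short motifs: AACAAT (SOX core), AACAAAG (TCF/LEF core), GGAAA (NFAT core) and GGGCGG (SP/KLF box).
Lhx2: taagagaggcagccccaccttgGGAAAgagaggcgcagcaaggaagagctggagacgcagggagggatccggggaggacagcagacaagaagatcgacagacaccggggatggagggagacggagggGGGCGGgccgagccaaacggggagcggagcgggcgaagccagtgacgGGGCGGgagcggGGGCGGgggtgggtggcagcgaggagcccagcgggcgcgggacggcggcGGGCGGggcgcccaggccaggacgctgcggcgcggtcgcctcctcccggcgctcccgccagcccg
Foxc1: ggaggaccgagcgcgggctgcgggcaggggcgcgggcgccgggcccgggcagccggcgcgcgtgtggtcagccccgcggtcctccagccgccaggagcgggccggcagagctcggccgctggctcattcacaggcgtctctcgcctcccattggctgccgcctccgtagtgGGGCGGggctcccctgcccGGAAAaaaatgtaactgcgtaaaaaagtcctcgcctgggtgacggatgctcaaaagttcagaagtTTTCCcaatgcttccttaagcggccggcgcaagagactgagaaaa
Lgr6: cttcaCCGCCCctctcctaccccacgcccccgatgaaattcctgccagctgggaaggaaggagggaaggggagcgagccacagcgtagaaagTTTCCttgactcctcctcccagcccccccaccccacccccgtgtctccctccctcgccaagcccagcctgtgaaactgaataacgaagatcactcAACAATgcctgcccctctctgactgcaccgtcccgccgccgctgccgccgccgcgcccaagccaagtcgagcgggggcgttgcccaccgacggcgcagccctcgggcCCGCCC

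The SP/KLF box occurred 4 times in the Lhx2 window shown, 1 time in that of Foxc1 and 2 times in that of Lgr6. Both Lgr6 copies lay on the opposite strand and are printed as the reverse complement. Of all 32851 windows of this length, 35.7% held this box. A second Lhx2 window, chr2:38351058-38351357 on the plus strand, is not shown. It held 0 SP/KLF boxes and 1 NFAT core, with a GC content of 69.3%. The NFAT core was in all 3 windows shown, but 61.3% of all windows held it. The SOX core was in the Lgr6 window and in that of Lrig1, against 10.7% of all windows, and the TCF/LEF core was in none of the 7, against 5.9%. No 2 matches overlapped. GC content was 74.7% for Lhx2, 67.3% for Foxc1 and 67.7% for Lgr6, above the median of 52.7% over all windows. A match is a run of letters and not a shown binding site.

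The 10 genes differed widely in level once read counts were divided by exon length. Lrig1, a transmembrane brake on epidermal growth factor receptor signalling, was highest at 1024 ± 149 normalised reads per kilobase (SD over 10 libraries). Sox9 followed at 609 ± 139, Lrp4 at 363 ± 89.1, Foxc1 at 255 ± 72.9, Lhx2 at 244 ± 99.5, Nfatc1 at 230.4 ± 36.3 and Lgr6 at 227 ± 43.7. Cd34 came lower at 119 ± 37.5, and Lgr5 and Tcf7l1 were lowest at 24.7 ± 8.32 and 24.7 ± 9.67. The ranges of neighbours in this order overlapped at every step except that between Cd34 and Lgr5. Lrig1 exceeded Sox9 per kilobase within each of the 10 libraries, and Cd34 exceeded Lgr5 in each of them. Lhx2 exceeded Nfatc1 in 5 of 10, Nfatc1 exceeded Lgr6 in 5 of 10 and Lgr5 exceeded Tcf7l1 in 5 of 10, so those pairs had no fixed order.

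**Figure D1:**
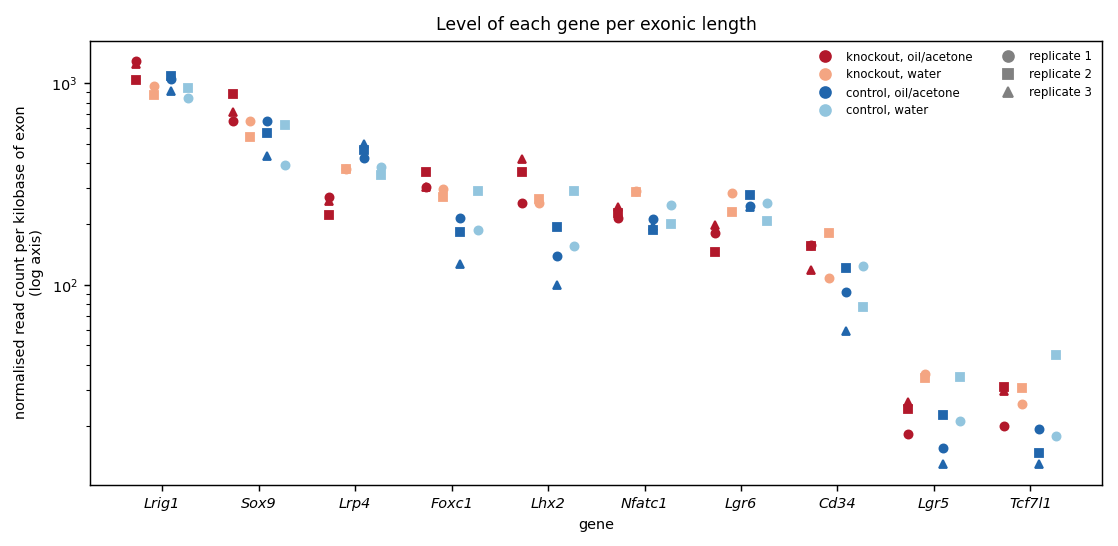
Level of each gene in normalised read counts per kilobase of exon (vertical log axis), with 1 point per library, coloured by group and shaped by replicate. Genes run by mean level, and Cd34 (59.2 to 179.7) and Lgr5 (12.9 to 36.3) are the only neighbours whose ranges do not overlap.

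The spread inside groups also differed between genes. Between the 2 libraries of knockout skin under water the coefficient of variation was 0.490% for Lrp4, 0.923% for Nfatc1, 2.82% for Lhx2, 3.30% for Lgr5, 6.72% for Foxc1 and 7.57% for Lrig1. It was larger for Tcf7l1 (12.7%), Sox9 (12.8%), Lgr6 (15.01%) and Cd34 (35.1%). In control skin under water the 2 libraries were further apart for each of the 5 factors. The higher value was 2.50 times the lower for Tcf7l1, 1.87 times for Lhx2, 1.58 times for Sox9 and 1.55 times for Foxc1. In these 4 replicate 2 was the higher library, which is also the one with 12003 normalised reads of hair shaft and inner sheath genes. Whether that library's hair content had a part in its factor levels was not tested. For Nfatc1 replicate 1 was the higher, 1.23 times replicate 2.

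Lhx2, a LIM-homeodomain factor that maintains follicle stem cells (chromosome 2, 38339281 to 38369733, plus strand), had 1114, 1590 and 1836 normalised reads in knockout skin under oil/acetone, 1121 and 1167 in knockout skin under water, 609, 852 and 439 in control skin under oil/acetone and 687 and 1283 in control skin under water. All 3 knockout oil/acetone libraries lay above all 3 control oil/acetone libraries. The log2 difference between them was 1.28 ± 0.29 (SE; 95% interval 0.63 to 1.92), which did not pass limma's test over all genes (adjusted p = 0.314). Without the 3 hair-rich libraries the difference was 0.86, and the 1 knockout oil/acetone library then left, at 1114, still lay above the control oil/acetone libraries. Under water the knockout and control libraries overlapped (difference 0.28, adjusted p = 0.963).

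Foxc1, a forkhead factor known to return bulge cells to quiescence (chromosome 13, 31806633 to 31812476, plus strand), followed the same order of groups. It had 1791, 2115 and 1786 normalised reads in knockout skin under oil/acetone, 1749.9 and 1591 in knockout skin under water, 1249.7, 1072 and 744 in control skin under oil/acetone and 1098 and 1696 in control skin under water. Every knockout library of either treatment exceeded every control oil/acetone library, and control water replicate 2 reached into the knockout range. Knockout minus control under oil/acetone was 0.92 ± 0.21 on the log2 scale (95% interval 0.45 to 1.39; limma adjusted p = 0.314). The difference was 0.84 without the 3 hair-rich libraries.

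Sox9, an HMG-box factor needed for the bulge and outer sheath (chromosome 11, 112782224 to 112787760, plus strand), had 2675, 3634 and 2975 normalised reads in knockout skin under oil/acetone, 2681 and 2235 in knockout skin under water, 2664, 2334 and 1800.4 in control skin under oil/acetone and 1613 and 2552 in control skin under water. The knockout oil/acetone libraries lay above the control oil/acetone libraries, but by a narrow gap: the lowest of the knockout libraries was 2675 and the highest of the controls 2664. The log2 difference was 0.46 ± 0.21 (95% interval -0.00645 to 0.92; limma adjusted p = 0.419).

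Tcf7l1 (chromosome 6, 72626378 to 72789254, minus strand) was the most sparsely read factor, with 78.6, 122 and 117 normalised reads in knockout skin under oil/acetone, 101 and 120.4 in knockout skin under water, 75.7, 57.3 and 50.5 in control skin under oil/acetone and 70.2 and 175 in control skin under water. Knockout and control did not overlap under oil/acetone, and control water replicate 2 was the highest library of all. Knockout minus control under oil/acetone was 0.78 ± 0.35 on the log2 scale (95% interval 0.01 to 1.54; limma adjusted p = 0.415) and 0.37 without the 3 hair-rich libraries. Oil/acetone minus water in controls was -0.87 ± 0.39 (adjusted p = 0.386), and over the alternatives tried it ranged between -1.53 and -0.21.

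Nfatc1, a calcineurin-activated factor that holds bulge cells in quiescence (chromosome 18, 80606205 to 80713071, minus strand), varied least between libraries of the 5 factors. It had 1599, 1700.3 and 1819 normalised reads in knockout skin under oil/acetone, 2168 and 2139.8 in knockout skin under water, 1582, 1389 and 1464 in control skin under oil/acetone and 1849 and 1498 in control skin under water. Each knockout group lay above the control group of its treatment with no overlap, and both knockout water libraries were above all others. The differences were 0.21 ± 0.13 under oil/acetone (limma adjusted p = 0.531) and 0.37 ± 0.16 under water (adjusted p = 0.963).

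All 5 factors were thus higher, without overlap, in the knockout than in control under oil/acetone. Of all 15958 genes tested, 8.55% were separated in that direction and 8.23% in the other (Lgr6 and Lrp4 among the members). For Sox9, Nfatc1 and Tcf7l1 the gap was narrow. Knockout replicate 1, which is not hair-rich, was lowest at 2675, 1599 and 78.6, against 2664, 1582 and 75.7 in the highest control library. The median log2 difference of the 5 factors was 0.776, against 0.016 over all genes. Without the 3 hair-rich libraries, which leaves 1 knockout oil/acetone library, the median of the 5 was 0.37 (the value of Tcf7l1), with Sox9 at 0.25 and Nfatc1 at 0.11. The direction held for each of the 5 factors in all 22 alternatives, including every scaling. None was called, and limma called 0% of all genes in this comparison: 0 of 15958 genes passed, although 1908 had an unadjusted p under 0.05. Called genes numbered 0 with edgeR's quasi-likelihood test and 168 with DESeq2, which called Lhx2 (adjusted p = 0.0137), Foxc1 (adjusted p = 0.0267) and, in the other direction, Lrp4 (adjusted p = 4.955e-06). Under water Nfatc1 alone of the 10 members was separated, upward, against 16.9% of all genes upward and 17.8% downward, and 0 of the 10 members and 0% of all genes were called, with 795 genes at an unadjusted p under 0.05, 0 called by edgeR and 6 by DESeq2.

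**Figure D2:**
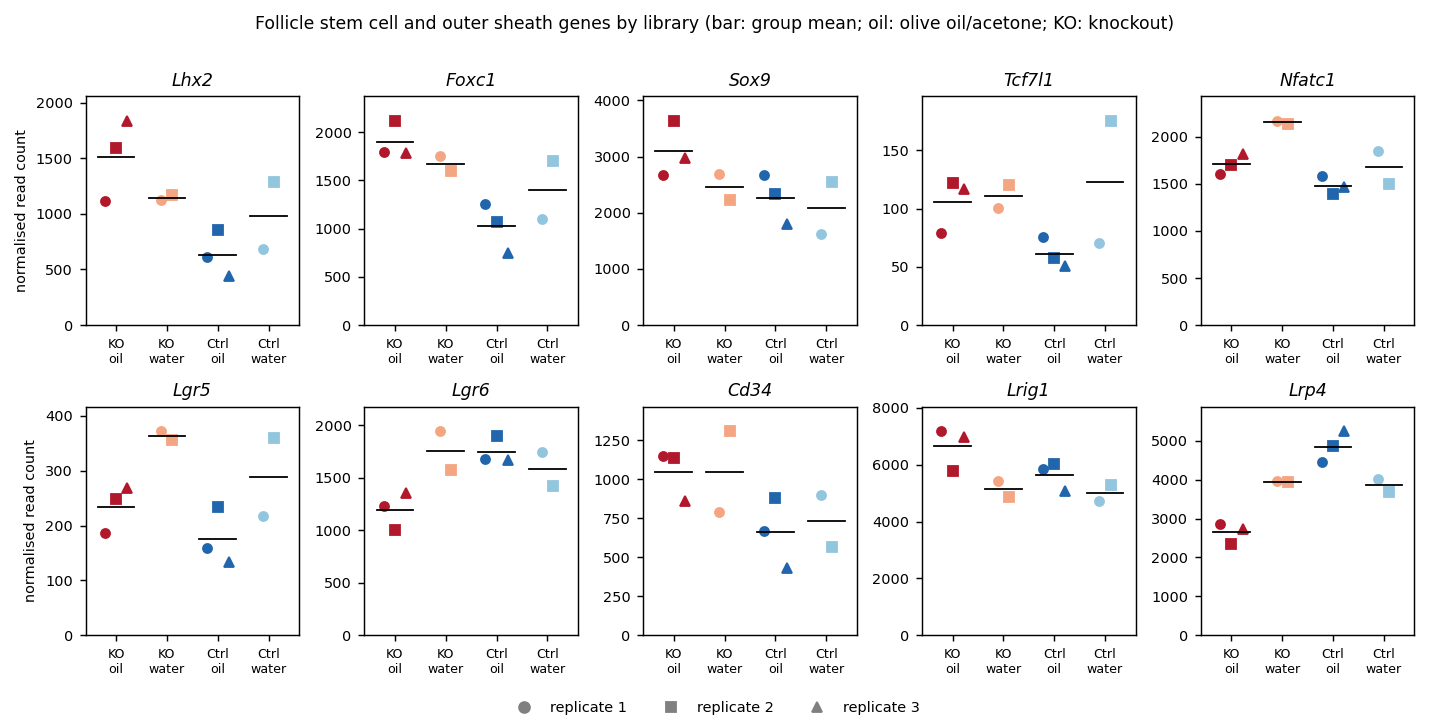
Normalised read count (vertical axis, linear, starting at 0) of each gene in each library. Columns are knockout oil/acetone, knockout water, control oil/acetone and control water, points are libraries shaped by replicate number, and bars are group means. Under oil/acetone the 5 factors of the top row are higher in the knockout than in control. Lrp4 is lowest in the knockout under oil/acetone (2339.8 to 2860.2, against 4440.3 to 5247 in control under oil/acetone).

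Lrp4, a low-density lipoprotein receptor relative that binds the Wnt modulators sclerostin and Sostdc1 (chromosome 2, 91457511 to 91513779, plus strand), went the other way. It had 2860.2, 2339.8 and 2740.0 normalised reads in knockout skin under oil/acetone, 3957 and 3929 in knockout skin under water, 4440.3, 4863 and 5247 in control skin under oil/acetone and 4023 and 3685 in control skin under water. The 3 knockout oil/acetone libraries were the lowest of all 10 and the 3 control oil/acetone libraries the highest, with the 4 water libraries between them.

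Within the knockout, Lrp4 was the 1 member of 10 that passed the test for oil/acetone against water, where 13.4% of all genes were called (6.74% higher and 6.69% lower). It fell by 0.58 ± 0.14 on the log2 scale (95% interval -0.89 to -0.27; limma adjusted p = 0.0305), to 2647 ± 272 under oil/acetone (SD, n = 3), against 3943 ± 19.3 under water (SD, n = 2). The decrease kept its sign in all 22 alternatives, between -0.64 and -0.46, and the call in 15. It was lost without knockout oil/acetone replicate 2 (-0.49, adjusted p = 0.0986) or 3 (-0.61, adjusted p = 0.0762), without knockout water replicate 1 (-0.58, adjusted p = 0.183) or 2 (-0.59, adjusted p = 0.171) and without control oil/acetone replicate 2 (-0.58, adjusted p = 0.0581). It was also lost without the 3 hair-rich libraries (-0.46, adjusted p = 0.216) and with libraries scaled to equal totals (-0.46, adjusted p = 0.0667).

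In controls Lrp4 was higher under oil/acetone than under water in every library, at 0.33 ± 0.14 (limma adjusted p = 0.370). It was the 1 member of 10 whose control groups did not overlap, where 12.2% of all genes were separated upward and 12% downward. Knockout minus control under oil/acetone was -0.88 ± 0.13 (95% interval -1.16 to -0.59), rank 2 of 15958 genes by p, with an adjusted p of 0.214 in limma. That comparison shares its knockout oil/acetone libraries with the treatment comparison above. Without knockout oil/acetone replicate 1 limma called it (-0.93, adjusted p = 0.0411), and without the 3 hair-rich libraries it was -0.76 (adjusted p = 1.000). Knockout and control overlapped under water (0.034, adjusted p = 0.994).

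**Figure D3:**
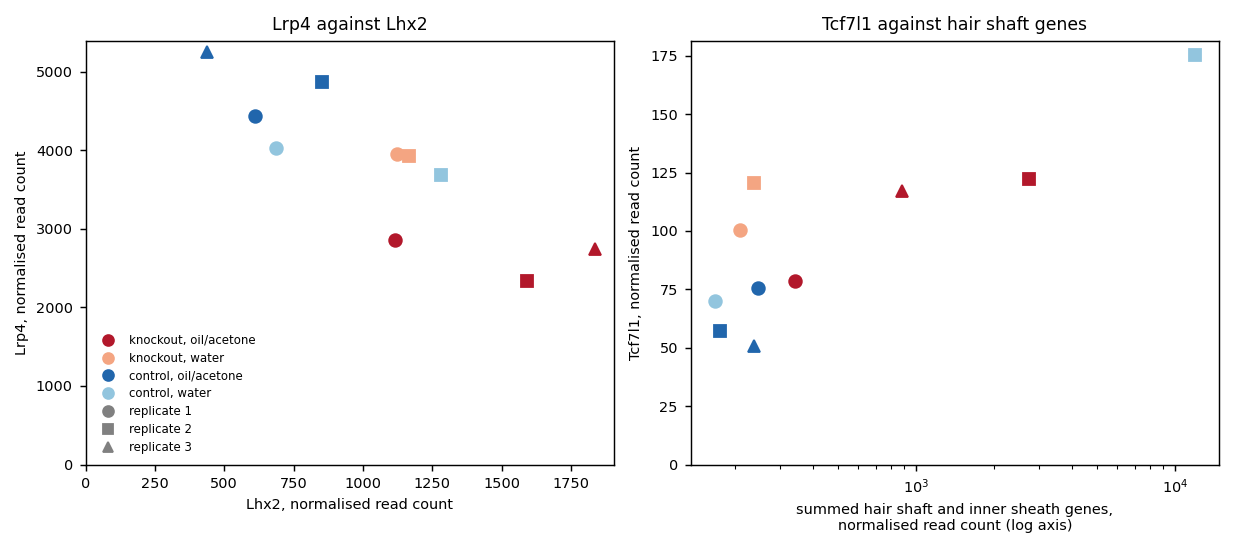
Left, Lrp4 against Lhx2 (normalised read counts, linear axes). Right, Tcf7l1 (normalised read count) against the summed hair shaft and inner sheath genes (log axis). Points are libraries, coloured by group and shaped by replicate. The knockout oil/acetone libraries have Lhx2 at 1114 to 1836 with Lrp4 at 2339.8 to 2860.2, the control oil/acetone libraries have Lhx2 at 439 to 852 with Lrp4 at 4440.3 to 5247, and Tcf7l1 is highest (175) where hair shaft genes are highest (12003).

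Lgr6, an R-spondin receptor of the isthmus above the bulge (chromosome 1, 134983301 to 135105276, minus strand), was also lowest in the knockout under oil/acetone. It had 1235, 1001 and 1358 normalised reads there, 1947 and 1573 in knockout skin under water, 1679, 1904 and 1671 in control skin under oil/acetone and 1748 and 1422 in control skin under water. The 3 knockout oil/acetone libraries were below the other 7. The log2 difference to knockout water was -0.56 ± 0.18 (95% interval -0.95 to -0.17; limma adjusted p = 0.0582), just outside the threshold. It passed in 4 of 22 alternatives, among them without control water replicate 1 or 2 (adjusted p = 0.0469 and 0.0473) and in DESeq2 (adjusted p = 0.0329). In the other 18 it did not pass, with adjusted p up to 0.3365, and over all 22 the difference was -0.71 to -0.41. The difference to control under oil/acetone was -0.56 ± 0.16 (95% interval -0.91 to -0.21; adjusted p = 0.314).

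Its close relative Lgr5, which marks the lower bulge and hair germ (chromosome 10, 115450311 to 115587780, minus strand), was read far less. It had 186, 249 and 268 normalised reads in knockout skin under oil/acetone, 372 and 355 in knockout skin under water, 159, 233 and 133 in control skin under oil/acetone and 217 and 359.8 in control skin under water. In the knockout the 2 treatments did not overlap, with a difference of -0.65 ± 0.30 (limma adjusted p = 0.146). In controls the difference was of like size, -0.71 ± 0.30 (adjusted p = 0.351), but the libraries overlapped. The interaction of genotype and treatment was 0.063 ± 0.42 for Lgr5 (95% interval -0.86 to 0.99) and -0.71 ± 0.25 for Lgr6 (95% interval -1.26 to -0.15), and neither passed (adjusted p = 0.960 and 0.374).

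Cd34, a sialomucin used to sort mouse bulge cells and also found on endothelium (chromosome 1, 194938819 to 194961279, plus strand), had 1148, 1139.8 and 861 normalised reads in knockout skin under oil/acetone, 789 and 1310.2 in knockout skin under water, 670.2, 880.3 and 432 in control skin under oil/acetone and 902 and 569 in control skin under water. Knockout oil/acetone replicate 3 overlapped the controls. Knockout minus control under oil/acetone was 0.71 ± 0.29 (95% interval 0.07 to 1.36; limma adjusted p = 0.395). The endothelial list was also higher in that comparison. In knockout oil/acetone minus water the endothelial median was 2.105, and Cd34 differed by 0.033. In knockout water replicates 1 and 2 Cd34 was 789 and 1310.2, and the endothelial sum was 188 and 433. Under oil/acetone the knockout and control values of the endothelial list were as follows. Its 11 genes summed to 664 to 1016 in knockout and 232 to 429 in control under oil/acetone, all 11 differences were positive with a median of 1.453, and 0 were called. Cdh5, Emcn and Cldn5 were each at 0 in 1 knockout water library. The part of endothelial RNA in the Cd34 values was not tested. Gm16897, an antisense gene whose exons overlap those of Cd34, averaged 15.2, and its reads cannot be told apart from Cd34 reads without a strand setting.

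Lrig1 (chromosome 6, 94604529 to 94700158, minus strand) had 7182, 5794 and 6964 normalised reads in knockout skin under oil/acetone, 5422 and 4871 in knockout skin under water, 5861, 6015 and 5085 in control skin under oil/acetone and 4714 and 5275 in control skin under water. The knockout treatments did not overlap. Oil/acetone minus water was 0.36 ± 0.15 in knockout (95% interval 0.03 to 0.70; limma adjusted p = 0.119) and 0.18 ± 0.15 in control (adjusted p = 0.651). Slc25a26, whose exons overlap Lrig1 on the opposite strand, averaged 107.

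**Figure D4:**
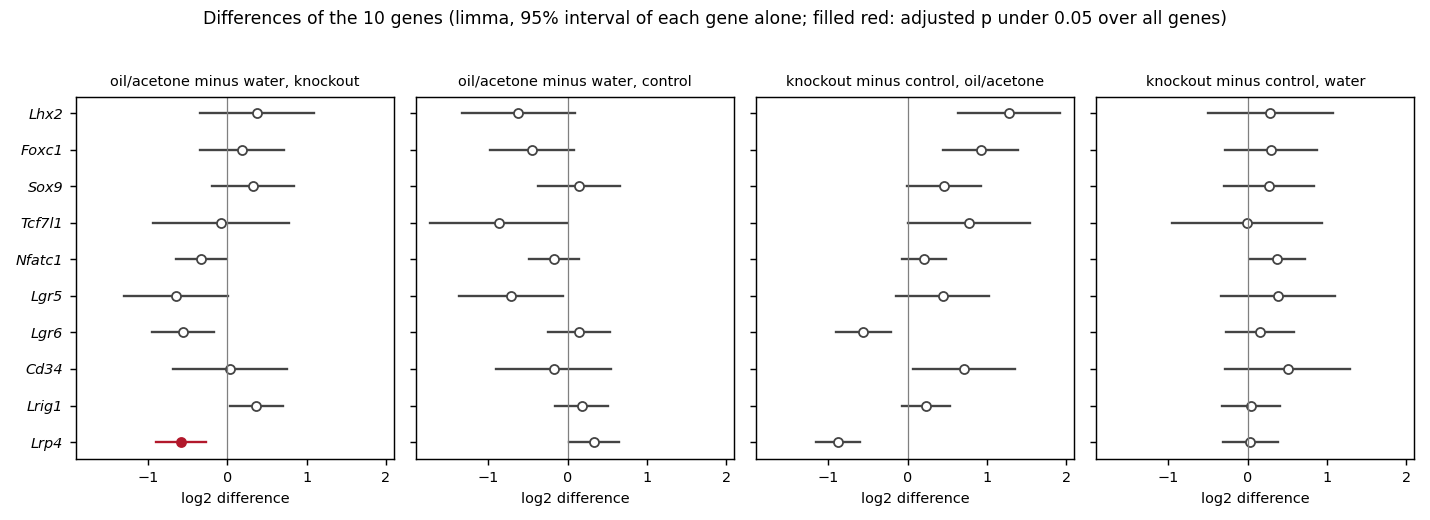
Log2 differences of the 10 genes (horizontal axis, limma) in 4 comparisons, with the 95% interval of each gene taken alone. The filled red point is the 1 value past the threshold after adjustment over all genes, Lrp4 in knockout oil/acetone minus water (-0.58), and open points did not pass.

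Between the treatments, 6 of the 10 genes had no overlap between oil/acetone and water in the knockout. Foxc1 and Lrig1 were higher, where 28.8% of all genes were separated upward, and Nfatc1, Lgr5, Lgr6 and Lrp4 were lower, where 29.2% were separated downward. The median of the 10 differences was -0.024, against 0.009 over all genes. Foxc1 differed by 0.18 (limma adjusted p = 0.613), Nfatc1 by -0.34 (adjusted p = 0.123), Lhx2 by 0.37 (adjusted p = 0.429), Sox9 by 0.33 (adjusted p = 0.338) and Cd34 by 0.033 (adjusted p = 0.952). Tcf7l1 differed by -0.081 (adjusted p = 0.897), which became 0.042 with libraries scaled to equal totals, which moved the median of all genes to 0.131.

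In controls 0 of the 10 members were called between oil/acetone and water, where 0.0627% of all genes were (10 genes; 0.0564% higher and 0.00627% lower). Before adjustment 2051 genes reached a p under 0.05. Among the members Tcf7l1, Lgr5 and Lrp4 had an unadjusted p under 0.05, and edgeR and DESeq2 called 0 of them. Their median difference was -0.175, against 0 over all genes. Lhx2 differed by -0.62 ± 0.32 (limma adjusted p = 0.448) and Foxc1 by -0.45 ± 0.24 (adjusted p = 0.450). For both genes control water replicate 1 lay inside the range of the oil/acetone libraries and replicate 2 above it.

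The interaction asks whether the treatment difference itself differed between genotypes, and 0 members and 0% of all genes passed it in limma, with 1897 genes at an unadjusted p under 0.05, 0 called by edgeR and 196 by DESeq2. Lrp4 had -0.91 ± 0.20 (95% interval -1.35 to -0.47; limma adjusted p = 0.356), rank 33 of 15958 by p, and DESeq2 called it (adjusted p = 0.0111). For Lhx2 it was 0.99 ± 0.46 (limma adjusted p = 0.423) and for Foxc1 0.63 ± 0.34 (adjusted p = 0.459), and without the 3 hair-rich libraries these were 0.14 and 0.24.

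Other genes known from the bulge gave no uniform change. Of 18 such genes, 1 fell and 0 rose in the knockout under oil/acetone against water, with a median difference of 0.144, where 6.69% of all genes fell and 6.74% rose. The gene that fell was Krt15, a keratin of bulge and basal cells, at 39249 ± 2482 under oil/acetone (SD, n = 3) and 73853 ± 8592 under water (SD, n = 2), a difference of -0.91 (limma adjusted p = 0.0219). Between knockout and control under oil/acetone 13 of the 18 were higher and 5 lower with a median of 0.312, 6 were separated upward and 1 downward, and 0 were called (of all genes, 8.55% were separated upward, 8.23% downward and 0% called). Postn, a matrix protein, averaged 15068 ± 4428 in knockout and 20285 ± 6494 in control there (SD, n = 3 each; adjusted p = 0.535).

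Beyond the bulge, upper follicle genes had a median difference of 1.017 and sheath keratins of 1.987 in the knockout under oil/acetone against water. Krt17 is on both lists. Of all genes, 6.74% rose and 6.69% fell in this comparison, and 28.8% were separated upward and 29.2% downward. In the knockout under oil/acetone against water, 2 of 6 upper follicle genes rose: Krt79, a keratin of the infundibulum and duct, by 1.66 (limma adjusted p = 0.0334), and Sostdc1, a secreted ligand of Lrp4 and antagonist of bone morphogenetic proteins, by 2.36 (adjusted p = 0.0188). Plet1 and Gata6 of the same list were lower without overlap, with differences of -1.40 and -0.27 that did not pass (adjusted p = 0.0925 and 0.389), and were named after their values were seen. Of 5 sheath keratins 3 rose, namely Krt75, the companion layer keratin, at 588 ± 172 under oil/acetone and 145 ± 24.0 under water, Krt6a, at 9288 ± 1669 under oil/acetone and 1396 ± 155 under water, and Krt6b, by 7.99 on the log2 scale (SD, n = 3 and 2; adjusted p = 0.0379, 0.0154 and 0.0147). Krt6a and Krt6b are also known to be induced in stressed interfollicular epidermis. Of 12 genes of the germ and matrix 2 fell, Tgfb2 by 0.97 and Foxn1 by 0.86 (adjusted p = 0.0445 and 0.0466). The list as a set went both ways, with 6 differences positive, 6 negative and a median of 0.314. Of these genes 4 were separated upward and 4 downward. The 12 hair shaft and inner sheath genes had a median of 2.068 and 0 calls. Among them Tchh, the trichohyalin of the inner sheath, averaged 401 ± 322 under oil/acetone and 143 ± 10.6 under water (adjusted p = 0.481).

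Wnt pathway genes were read beside the R-spondin receptors. Of 29 tested, with Sostdc1 and Lrp6 counted here as well, 3 rose and 4 fell in the knockout under oil/acetone against water (median -0.172), where 6.74% of all genes rose and 6.69% fell. The ligands Wnt16 and Wnt7b fell by 2.23 and 1.01 (limma adjusted p = 0.0120 and 0.0284). Notum, an extracellular Wnt deacylase, rose by 2.55 (adjusted p = 0.0305). Rspo2, an R-spondin, averaged 18.1 ± 10.8 under oil/acetone and was at 0 in both water libraries (adjusted p = 0.0264). Of 16 relatives of the members 2 fell, Nfat5 by 1.11 and Lrp6, a Wnt co-receptor, by 0.53 (adjusted p = 0.0303 and 0.0432). Knockout minus control under oil/acetone had medians of 0.031 for the Wnt list and 0.06 for the relatives, with 0 calls in each.

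Markers of other compartments moved in the same libraries. In the knockout under oil/acetone against water 6.74% of all genes rose and 6.69% fell. Krt5 and Krt14 are on both the basal and the keratinocyte list. Of 14 basal epidermal genes 3 fell in the knockout under oil/acetone against water, among them Dst by 1.37 and Trp63 by 0.99 (limma adjusted p = 0.0456 and 0.0290), and the median was -0.828. Against control under oil/acetone all 14 were negative (median -0.832, 0 called). The median basal gene, relative to the median library, was at -1.24 and -0.82 on the log2 scale in knockout oil/acetone replicates 2 and 3 and at -0.08 in replicate 1. In the knockout treatment comparison 4 of 11 endothelial genes rose (Pecam1, Egfl7, Tie1 and Plvap), as did all 5 red blood cell genes. There, 1 of 3 dermal papilla genes rose (Alx4) and 1 of 8 fibroblast genes fell (Lum). Of 8 keratinocyte genes Krt1 rose and Cdh1 fell. Sebocyte (10 tested), melanocyte (6), mast cell (2) and leukocyte (5) genes had 0 calls. The part of these other cells in the members' differences was not tested.

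**Figure D5:**
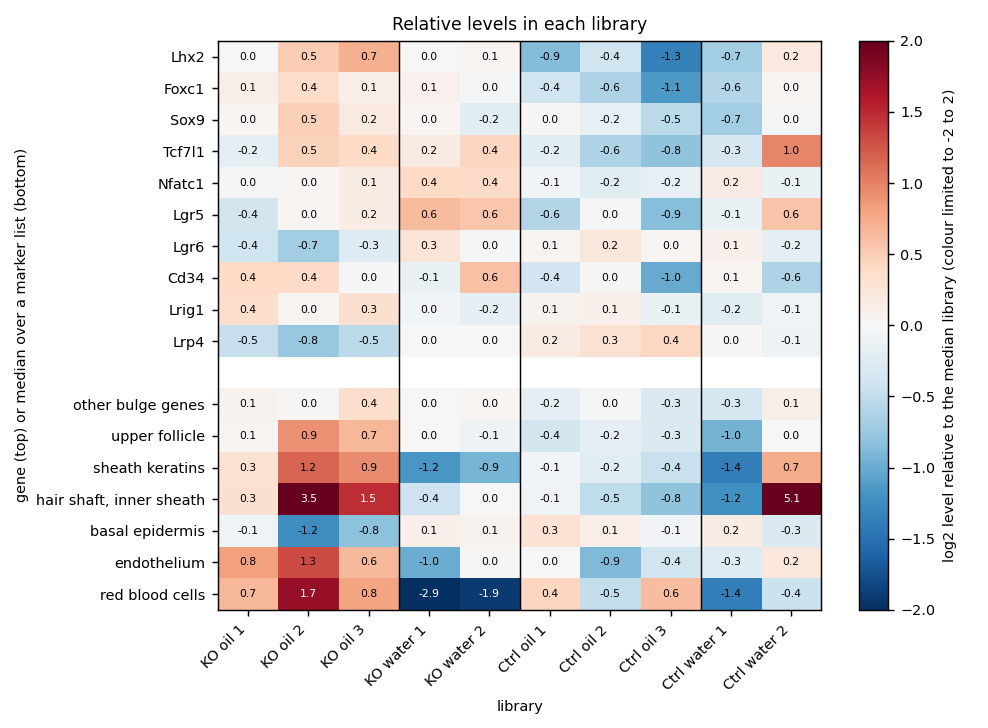
Log2 level relative to the median library for each gene (top) and as the median over marker lists (bottom), in each library. Columns run through knockout oil/acetone, knockout water, control oil/acetone and control water, red is higher and blue lower. Hair shaft genes are at 3.5 and 1.5 in knockout oil/acetone replicates 2 and 3 and at 5.1 in control water replicate 2, and Lrp4 is at -0.5 to -0.8 in the 3 knockout oil/acetone libraries.

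For each member the genes most like it, at most 2, were sought by Pearson r of log2 values over the 10 libraries, among 11453 other genes with a mean of 50 or more, predicted genes left out. The libraries share 4 groups, so any gene that differs between groups in the same way scores high, and r is a description only. Lhx2 was most like Calhm5 (0.955) and Piwil2 (0.950), Foxc1 like Fzd7 (0.965) and Ptprk (0.926), Sox9 like Cdc42ep4 (0.905), Tcf7l1 like H2-Aa (0.959) and H2-M5 (0.957), and Nfatc1 like Dusp18 (0.927) and Brix1 (0.896). Among the surface proteins, Lgr5 was most like Gadl1 (0.956) and Tgfb3 (0.949), Lgr6 like Rest (0.954) and Dync2h1 (0.945), Cd34 like Nog (0.902) and Smoc1 (0.878), Lrig1 like Dkk3 (0.934) and Rhno1 (0.924), and Lrp4 like Sema3d (0.946) and Uhmk1 (0.938). Dkk3 is itself on the list of other bulge genes and on the Wnt list.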

How the data were processed

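RNA of unsorted keratinocytes from back skin epidermis was sequenced in 10 libraries. In the files the authors deposited, each gene has a normalised read signal. The tools named are DESeq2 1.26.0, featureCounts 2.0.0 and Trimmomatic 0.38, with GRCm38 (mm10), according to the submitters' processing notes. No source used here gives the aligner, the annotation or whether counting used strand. All deposited values (100%, tolerance 0.1 read) were whole multiples of 1 step per library, which gave whole read counts. PCR reads are not independent molecules, so read counts carry counting error only as a lower limit.

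All 17983 identifiers were matched to GENCODE release M21, where exon lengths were taken. The 15987 genes listed in all 10 files were divided by median-of-ratios factors (0.995 to 1.004) and kept where 2 libraries or more reached 10, leaving 15958. Differences of log2(value + 1) were tested with limma 3.58.1 (R 4.3.3; eBayes with a trend, 4 group means in 1 fit of all 10 libraries, two-sided), with Benjamini-Hochberg adjustment over all genes and calls at an adjusted p under 0.05. This scale understates the fold of low genes. The fit was also run on simulated data. Its counts were drawn for each gene separately, with no shift shared by the genes of a library, so that run cannot speak to such shifts here. All adjusted p-values are from limma unless edgeR 4.0.16 or DESeq2 1.42.0, run on whole reads, is named. The members and gene lists were chosen with earlier results of these data known. Every member was named. From other lists at most 4 called genes were named, the 2 lowest and 2 highest differences, or without calls the 2 of highest mean level. Cdh5, Emcn, Cldn5, Krt5, Krt14 and Gsdma3 were named outside that rule, as was each overlapping antisense or opposite-strand gene. Of the lists, Krt85, Dkk1, Sost, Sox17, Erg, Sox2, Fcer1a, Ms4a2 and Xist were not found among the 17983 genes. Xist could therefore not be read beside the Y-linked genes. A few genes that the naming rule took are not reported here.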

Additional observations from a re-analysis of the deposited data

Results flagged for a closer look

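The treatment difference of Lrp4 ran in opposite directions in the 2 genotypes. Every knockout oil/acetone library (2339.8 to 2860.2 normalised reads) lay below every knockout water library (3929 and 3957), and every control oil/acetone library (4440.3 to 5247) lay above every control water library (3685 and 4023). Separation alone was common: of all genes, 29.2% were separated downward in the knockout and 12.2% upward in controls. How many genes showed both was not counted. The treatment difference of Lrp4 passed in the knockout (limma adjusted p = 0.0305) and did not pass in controls (limma adjusted p = 0.370). The interaction was -0.91 on the log2 scale. The difference between genotypes was tested and did not pass in limma (adjusted p = 0.356), while DESeq2 called it (adjusted p = 0.0111). Its sign was the same in all 20 alternatives that could be run, at -0.97 to -0.73.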

How the results depend on the processing

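In knockout oil/acetone minus water, 1 member was called. The count was 0 with libraries scaled to equal totals and without the 3 hair-rich libraries, 2 with the replicate block and in DESeq2 (Lgr6 and Lrp4 in both), and 0 to 2 with 1 library left out. In knockout minus control under oil/acetone 0 became 3 in DESeq2 and 0 to 1 with 1 library left out. For the interaction 0 became 1 in DESeq2. In the other 2 comparisons 0 members were called under every alternative run. Numbers of all genes called depended far more on single libraries: 2143 in knockout oil/acetone minus water became 9 to 3141 (3626 in DESeq2, 3892 with those groups alone, 46 without the hair-rich libraries), and 10 in controls became 6 to 470 (58 with the block, 354 in DESeq2, 32 without the hair-rich libraries). The 0 calls of knockout minus control under oil/acetone became 0 to 51, under water 0 to 1 and for the interaction 0 to 72. Equal totals split the knockout treatment calls into 1346 higher and 845 lower, against 1076 and 1067, and moved the median of all genes to 0.131, 0.109 under the genotype contrast in oil/acetone and 0.19 for the interaction.

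Whether replicate numbers pair the libraries is not labelled, and so few correlations cannot decide it. Same-numbered knockout and control oil/acetone libraries deviated together at r = 0.307, -0.105 and 0.131. Knockout replicates 1 and 3 were closest to the control of their own number, and knockout replicate 2 to control replicate 3 (0.257). Between control oil/acetone and control water, r was 0.303 for replicate 1 and -0.067 for replicate 2. With the replicate block Lgr6 was -0.59 (adjusted p = 0.0425) and Lrp4 -0.62 (adjusted p = 0.0198) in knockout oil/acetone minus water.

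Of single-gene values, 1027 kept direction and side of the threshold, 9 newly passed, 7 no longer passed and 37 turned sign. Without the hair-rich libraries these were Lhx2 -0.030 (knockout oil/acetone minus water), Tcf7l1 0.63, Lgr6 -0.0090 and Lrp4 -0.039 (knockout minus control, water), and Sox9 -0.34, Tcf7l1 -0.26 and Lgr5 -0.61 (interaction). With equal totals they were Tcf7l1 0.042 (knockout oil/acetone minus water), Lrig1 -0.023 and Lrp4 -0.033 (knockout minus control, water). Cd34 was -0.000248 in DESeq2 (knockout oil/acetone minus water) and 0.030 with the block (control oil/acetone minus water). With 1 library left out, 14 results turned: knockout oil/acetone minus water Tcf7l1 (-0.21 to 0.12) and Cd34 (-0.34 to 0.40); control oil/acetone minus water Sox9 (-0.19 to 0.47) and Cd34 (-0.51 to 0.15); knockout minus control under water Lhx2 (-0.17 to 0.73), Foxc1 (-0.029 to 0.60), Sox9 (-0.066 to 0.60), Tcf7l1 (-0.67 to 0.64), Lgr6 (-0.0030 to 0.30), Lrig1 (-0.044 to 0.12) and Lrp4 (-0.032 to 0.092); interaction Sox9 (-0.15 to 0.52), Lgr5 (-0.30 to 0.43) and Cd34 (-0.16 to 0.58). The cause was not tested. Where a group of 2 lost a library, and in knockout oil/acetone and control water without the 3 hair-rich libraries, the lone library was assumed to vary like the other groups. Counting error bears most on Tcf7l1 and Lgr5, the members with the fewest reads (46 and 121 recovered reads in the lowest library).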
